A study of Mus musculus with 5 samples.

Results

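The genes described are a set of 10 white fat and lipid storage genes, listed by name: the fat cell hormones and secreted factors Adipoq, Cfd, Retn and Lep, the lipid droplet coat gene Plin1, the fatty acid uptake genes Lpl and Cd36, the lipid synthesis genes Fasn and Scd1, and the fat cell enzyme gene Car3. A probe set was used where the platform annotation named a single gene for it, and the probe set with the highest mean intensity over the arrays stood for the gene. This gave 8 genes with 13 probe sets, of 12393 genes and 22626 probe sets in all; Cfd and Plin1 were not analysed here. The annotated genes lie, on GRCm38.p6, on chromosome 16 (Adipoq, 23146536 to 23157968), 8 (Retn, 3655770 to 3659818, and Lpl, 68880555 to 68906932), 6 (Lep, 29060221 to 29073876), 3 (Car3, 14863538 to 14872381), 5 (Cd36, 17781690 to 17888959), 19 (Scd1, 44394450 to 44407709) and 11 (Fasn, 120805958 to 120825166).

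The study set pulmonary hypertension caused by a mutant BMP receptor beside that caused by low oxygen. Total RNA of whole mouse lung, pooled from an unstated number of animals, was measured on 1 array in each of 5 conditions. SM22-tet-BMPR2delx4+ mice on doxycycline (the induced pool) switch on a dominant-negative BMPR2 through a transactivator driven by the smooth muscle promoter SM22; their right ventricular pressure was 50 ± 8 mmHg. The hypoxic pool, from FVB/N mice that were 8 weeks old and had spent 4 weeks in hypoxia, had the same pressure. The 3 pools at 30 ± 3 mmHg were SM22-tet-BMPR2delx4+ mice without doxycycline (the uninduced pool), SM22-rtTA mice on doxycycline, which carry the transactivator alone, and wild-type FVB/N mice aged 8 weeks. The induced and uninduced pools differ in doxycycline as well as in the mutant receptor, and these cannot be told apart between them. The SM22-rtTA and uninduced pools differ in both genotype and doxycycline. Below, with induction means the induced against the uninduced pool, drug included. The titles of the transgenic pools also give 8 weeks, but not of what, and no strain. The kind of error written with the pressures is not stated. With 1 array in each group there is no test and no error for any level, and precision is limited by the number of arrays; the spread among the 3 normal-pressure pools is given in its place.

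White fat cells store triglyceride in a single large droplet and secrete hormones. Lipoprotein lipase frees fatty acids from blood lipoproteins, CD36 takes them up, and fatty acid synthase and stearoyl-CoA desaturase make and desaturate new ones. In the lung, surfactant-producing alveolar type 2 cells also synthesise and desaturate fatty acids, capillary endothelium and macrophages carry CD36, and macrophages make lipoprotein lipase. Adiponectin and leptin are by contrast made mainly by fat cells. Brown fat, which burns lipid for heat, shares many of these genes and lies in the mediastinum close to the lung, and slow skeletal muscle also has much carbonic anhydrase 3. In a whole-tissue pool, more cells of a type and more RNA per cell cannot be told apart.

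Levels are scaled intensities: deposited intensities after a shift of each array to a common median. Values under a noise floor of 276, the median of all scaled values, were raised to it in every ratio, so such a ratio gives only a bound. Of 8 measured alveolar type 2 markers, 8 were above the floor in each pool except the induced one, where Etv5, at 146, was under it; surfactant protein C (Sftpc) was between 10705 and 13366. The wild-type pool also held genes of other organs: 8 of 8 kidney markers were highest there, their summed level being 42899.8 against 1115 to 2431 in the other pools, as were 6 of 6 measured liver and 5 of 5 adrenal markers. This pool is the matched control of hypoxia, so calls in hypoxia against it are set beside a comparison with the mean of both transgenic normal-pressure pools. The log2 ratio of SM22-rtTA to the uninduced pool, both at normal pressure, had a standard deviation (SD) of 0.34 over the 5894 genes above the floor in all pools, and that of wild type to the mean of both transgenic pools had an SD of 0.60.

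Adiponectin and carbonic anhydrase 3 transcripts were high in the wild-type and the induced pools and lowest in the uninduced pool under all 3 scalings tried. Adipoq, which encodes adiponectin, was at 1957 in wild type, 1269.6 in the induced pool, 811 in SM22-rtTA, 792 in hypoxia and 453 in the uninduced pool. It was therefore 2.80-fold higher in the induced than in the uninduced pool, a log2 ratio of 1.49, and 2.47-fold lower in hypoxia than in wild type, a log2 ratio of -1.31. The normal-pressure pools alone spanned 4.32-fold, and both elevated-pressure pools lay within that range. Against SM22-rtTA the induced pool was 1.57-fold higher, and against the transgenic pools hypoxia was 1.31-fold higher. The hypoxic and SM22-rtTA levels, next to each other in the order, were less than 1.5-fold apart, while each other step in the order was at least 1.5-fold.

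Car3, an abundant cytosolic enzyme of fat and slow muscle, was at 8361 in wild type, 7578 in the induced pool, 4805 in hypoxia, 3533 in SM22-rtTA and 1967 in the uninduced pool. Induction went with a level 3.85-fold above the uninduced control, and hypoxia with a level 1.74-fold below wild type but 1.82-fold above the transgenic pools. The other Car3 probe set had 4237 in the induced pool, 3669 in wild type, 1981 in SM22-rtTA, 1739 in hypoxia and 709.8 in the uninduced pool. Both probe sets had their lowest level in the uninduced pool and their highest levels in the induced and wild-type pools. Which of these was highest differed between the probe sets and, for the first, with the scaling. Fast skeletal muscle markers moved with Car3 after induction: 10 of 10 were higher than in the uninduced pool, against 5.08% of all genes. The summed level of these markers was 62496 in the induced pool, 17045 in hypoxia, 5385 in the uninduced pool, 3173 in wild type and 2587 in SM22-rtTA. In wild type, where Car3 was as high as in the induced pool to within 1.5-fold, 3 of the 10 were above the floor (Ckm, Myh4 and Pvalb). Acta1 and Tnni2 were at the floor there. Pvalb was highest in the same 2 pools as Car3, at 2045 in the induced pool, 764 in wild type and 154 to 293 elsewhere. Against the transgenic pools 1 of the 10 was called higher in wild type (Pvalb) and 1 lower (Acta1), where 16.9% and 10.3% of all genes were. Slow muscle markers were not listed, and the part of muscle in the Car3 levels was not tested.

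**Figure D1:**
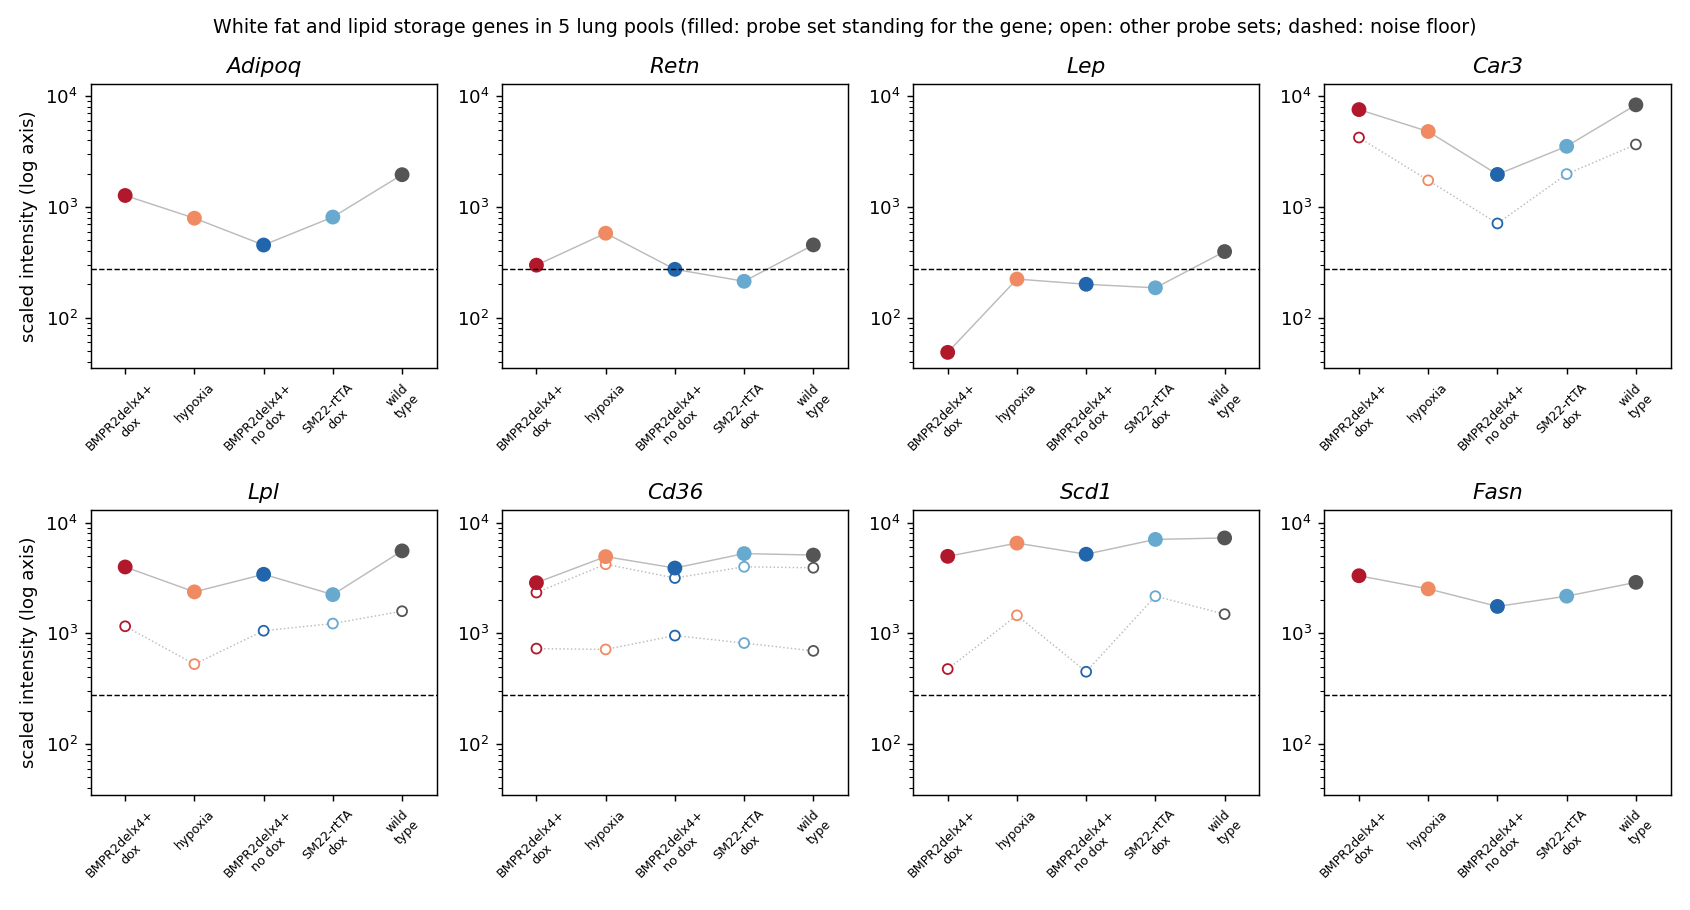
Scaled intensity on a log axis of the 8 genes in the 5 pools, 1 array each; filled points are the probe set that stands for the gene, open points its other probe sets, the dashed line is the noise floor of 276, and the grey lines only join points of a probe set. Adipoq and Car3 are high in the wild-type and induced pools and lowest in BMPR2delx4+ without doxycycline, while on the filled points Cd36 and Scd1 are lowest in the BMPR2delx4+ pools.

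The other fat cell hormones were near or under the floor in most pools. Retn encodes resistin, a hormone of mouse fat cells; it was at 579 in hypoxia, 454 in wild type and 298 in the induced pool, and under the floor in the uninduced (273) and SM22-rtTA (213) pools. Hypoxia was the highest pool, at least 2.10-fold above the transgenic pools and 1.28-fold above wild type. In the induced pool, where Adipoq was high, Retn was just above the floor. Lep, which encodes leptin, was above the floor in wild type alone, at 396, and at 223 in hypoxia, 200.4 in the uninduced pool and 186 in SM22-rtTA. In the induced pool its deposited intensity was 50, the lower limit of the deposited table. Wild type was at least 1.43-fold above the other pools, short of the 1.5-fold used as a call.

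The uptake genes did not follow Adipoq in every pool. Lpl, which encodes lipoprotein lipase, was at 5559 in wild type, 3979 in the induced pool, 3416 in the uninduced pool, 2369.7 in hypoxia and 2238 in SM22-rtTA. It was 2.35-fold lower in hypoxia than in wild type, and 1.17-fold lower than in the transgenic pools. Induced and uninduced pools were 1.16-fold apart. The second Lpl probe set was at 1586 in wild type, 1226 in SM22-rtTA, 1159 in the induced pool, 1056 in the uninduced pool and 528 in hypoxia. On both probe sets wild type was highest and hypoxia was below the induced, uninduced and wild-type pools. They disagreed on SM22-rtTA, which the first placed 1.53-fold below the uninduced pool and the second 1.16-fold above it.

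Cd36, the fatty acid receptor of capillary endothelium, macrophages and fat, was at 5256 in SM22-rtTA, 5095 in wild type, 4935 in hypoxia, 3890.0 in the uninduced pool and 2868 in the induced pool. The BMPR2delx4+ pools were the lowest, and the induced pool was below the range of all normal-pressure pools. It was 1.36-fold below the uninduced pool, which is not a call, and 1.83-fold below SM22-rtTA, which is. The second probe set gave the same order at the low end, with 2337 in the induced and 3161 in the uninduced pool against 3914 to 4212 in the others. The third, at 695 to 955, did not: the uninduced pool was its highest. Endothelial markers were lower in the induced pool as well, with 5 of 11 at least 1.5-fold below the uninduced pool and none above it to that degree, and a summed level of 30084 against 40639. Of all genes, 2.58% were called lower in this comparison. In wild type the summed level of endothelial markers was also low, at 31310.5, while Cd36 was not. Against SM22-rtTA, where Cd36 was called, 4 of 11 endothelial and 4 of 7 measured macrophage markers were lower and 0 of either list higher. The background there was 6.18% of all genes lower and 9.8% higher. The summed level of the macrophage list was 7319 in the induced pool, 12068.5 in SM22-rtTA, 10320.4 in the uninduced pool, 11378 in wild type and 13781 in hypoxia. The part of these cells in the Cd36 levels was not tested.

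Fasn encodes fatty acid synthase, which makes palmitate. It was at 3315 in the induced pool, 2888 in wild type, 2522 in hypoxia, 2168 in SM22-rtTA and 1752 in the uninduced pool. The induced pool was the highest of all and stood outside the range of the normal-pressure pools, 1.89-fold above the uninduced pool (log2 ratio 0.92) and 1.53-fold above SM22-rtTA. Hypoxia was 1.14-fold below wild type and 1.29-fold above the transgenic pools, neither of which is a call. No neighbours in this order were 1.5-fold apart.

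Scd1 encodes the desaturase that turns stearate into oleate. Its first probe set was at 7276 in wild type, 7055 in SM22-rtTA, 6532 in hypoxia, 5187 in the uninduced pool and 4964 in the induced pool, a range of 1.47-fold with no call in any comparison. Its second probe set had the same split between pools on a wider scale: 2167 in SM22-rtTA, 1491 in wild type and 1456 in hypoxia against 476 in the induced and 450.2 in the uninduced pool. On it, the lowest of the other 3 pools was 3.06-fold above the higher of the BMPR2delx4+ pools, and on the first 1.26-fold. The BMPR2delx4+ pools were the lowest on both probe sets under all 3 scalings tried, and induction made no difference of 1.5-fold between them on either. Alveolar type 2 markers summed to 39668 after induction and 51355 without it, and to between 50688 and 53241 in the remaining pools. The part of these cells in the Scd1 levels was not tested.

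Promoter sequence was at hand in RefSeq (GRCm38.p6) for 7 of the 10 genes: Adipoq, Retn, Lep, Cd36 and Fasn, with Cfd and Plin1. The 250 bases before the listed start are printed for the 3 of them that were called in a comparison of the induced pool, Adipoq and Fasn, which were higher, and Cd36, which was lower. The table lists 1 start for each; on the minus strand those of Fasn and Cd36 are not the outermost end of the gene, so both windows lie inside the gene spans given above. Capitals mark matches, on either strand, to the motifs searched: the nuclear receptor half-site AGGTCA that PPARγ and other receptors use, the C/EBP motif TTNNGCAA, the sterol regulatory element TCACNCCAC, the NF-Y box CCAAT and the TATA box TATAAA.
Adipoq, chr16:23146286-23146535, plus strand: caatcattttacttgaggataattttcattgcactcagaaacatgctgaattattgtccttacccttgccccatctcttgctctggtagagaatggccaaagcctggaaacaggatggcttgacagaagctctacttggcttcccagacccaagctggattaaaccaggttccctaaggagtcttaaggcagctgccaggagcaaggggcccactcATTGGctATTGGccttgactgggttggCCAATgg
Fasn, chr11:120824548-120824797, minus strand: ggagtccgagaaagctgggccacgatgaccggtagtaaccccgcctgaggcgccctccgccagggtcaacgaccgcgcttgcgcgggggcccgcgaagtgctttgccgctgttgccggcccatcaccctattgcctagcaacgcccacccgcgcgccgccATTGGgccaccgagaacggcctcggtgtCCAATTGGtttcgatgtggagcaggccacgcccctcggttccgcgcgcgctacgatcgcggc
Cd36, chr5:17835897-17836146, minus strand: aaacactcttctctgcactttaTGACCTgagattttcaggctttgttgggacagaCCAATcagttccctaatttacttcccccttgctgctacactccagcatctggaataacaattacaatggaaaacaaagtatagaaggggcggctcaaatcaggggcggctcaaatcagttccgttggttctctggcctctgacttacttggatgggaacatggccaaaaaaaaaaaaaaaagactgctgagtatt

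All 3 windows held CCAAT, which was in 33.8% of the 32851 RefSeq windows of this length: Adipoq had 3 matches, the last 7 to 3 bases before the start, Fasn had 3, of which those at 62 to 58 and 59 to 55 bases before the start overlap, and Cd36 had 1. Cd36 also had an AGGTCA match on the opposite strand at 228 to 223 bases before the start, a motif found in 14.0% of windows. The C/EBP motif, in 9.56% of windows, was found at 55 to 48 bases before the start of Lep and in Plin1, and not in the printed windows. TCACNCCAC (1.05% of windows) and TATAAA (12.4%) were in none of the 7. These matches describe the letters of the windows and were not tied to the levels.

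Across the comparisons, the members called at 1.5-fold differed with the control. With induction against the uninduced pool 3 of 8 were called higher (Car3, Adipoq and Fasn) and 0 lower, where 5.08% of the 8596 genes above the floor in at least 1 pool were called higher and 2.58% lower; the median log2 ratio of the members was 0.17 and that of all these genes 0.00. On the probe sets that stand for the genes, only Fasn of the 3 was also above every normal-pressure pool, a condition met by 3.29% of genes. The second Car3 probe set was too, at 4237 against 709.8 to 3669. Against SM22-rtTA 4 were higher (these 3 and Lpl, which was 1.78-fold higher) and 1, Cd36, lower, with a background of 9.8% and 6.18%. For Lpl this rests on its first probe set, since the second had a log2 ratio of -0.08. With values as deposited, Adipoq and Fasn did not reach 1.5-fold in this comparison, at log2 ratios of 0.58 and 0.55. In hypoxia against wild type 0 members were higher and 3 lower (Adipoq, Lpl and Car3), against 7.67% and 12% of genes, and the median was -0.36 against 0.03 over all. None of the 3 was below every normal-pressure pool, which 4.82% of genes were. Against the transgenic pools hypoxia had 2 members higher (Retn and Car3) and 0 lower, with a background of 12.1% and 4.35%, and a median of 0.25. The sign of the hypoxic log2 ratio of Adipoq and Car3 thus turned with the control. Adipoq was not called against the transgenic pools, and its hypoxic level of 792 was just below the 811 of SM22-rtTA. The second Car3 probe set was 1.47-fold higher, which is not a call, with 1739 in hypoxia and 1981 in SM22-rtTA. The comparison of hypoxia with the transgenic pools shares the uninduced array with that of induction.

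Among the normal-pressure pools, 4 of 8 members were higher in wild type than in the mean of the transgenic pools (Adipoq 3.23-fold, Car3 3.17-fold, Lpl 2.01-fold and Retn at least 1.64-fold) and 0 lower, with 16.9% of all genes called higher and 10.3% lower. The second Lpl probe set fell short of a call, at 1.39-fold, as did Retn with values as deposited, at a log2 ratio of 0.56. All 8 members had a positive log2 ratio in the main setting, with a median of 0.64. That of Cd36 was small, at 0.17. It was -0.048 with values as deposited, -0.096 with quantile normalization and -0.012 with the mean of probe sets. In SM22-rtTA against the uninduced pool, 2 members were higher (Adipoq 1.79-fold and Car3 1.80-fold) and 1, Lpl, lower, against 3.05% and 4.57%. The second Lpl probe set went the other way, 1.16-fold higher. The second Scd1 probe set was 4.81-fold higher in SM22-rtTA, where the first was 1.36-fold higher. On the probe sets that stand for them, Adipoq and Car3 spanned 4.32-fold and 4.25-fold among the normal-pressure pools, more than either elevated-pressure pool differed from its matched control. This did not hold on the second Car3 probe set. There the induced pool, at 4237, was above the normal-pressure range of 709.8 to 3669, and 5.97-fold above the uninduced pool.

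**Figure D2:**
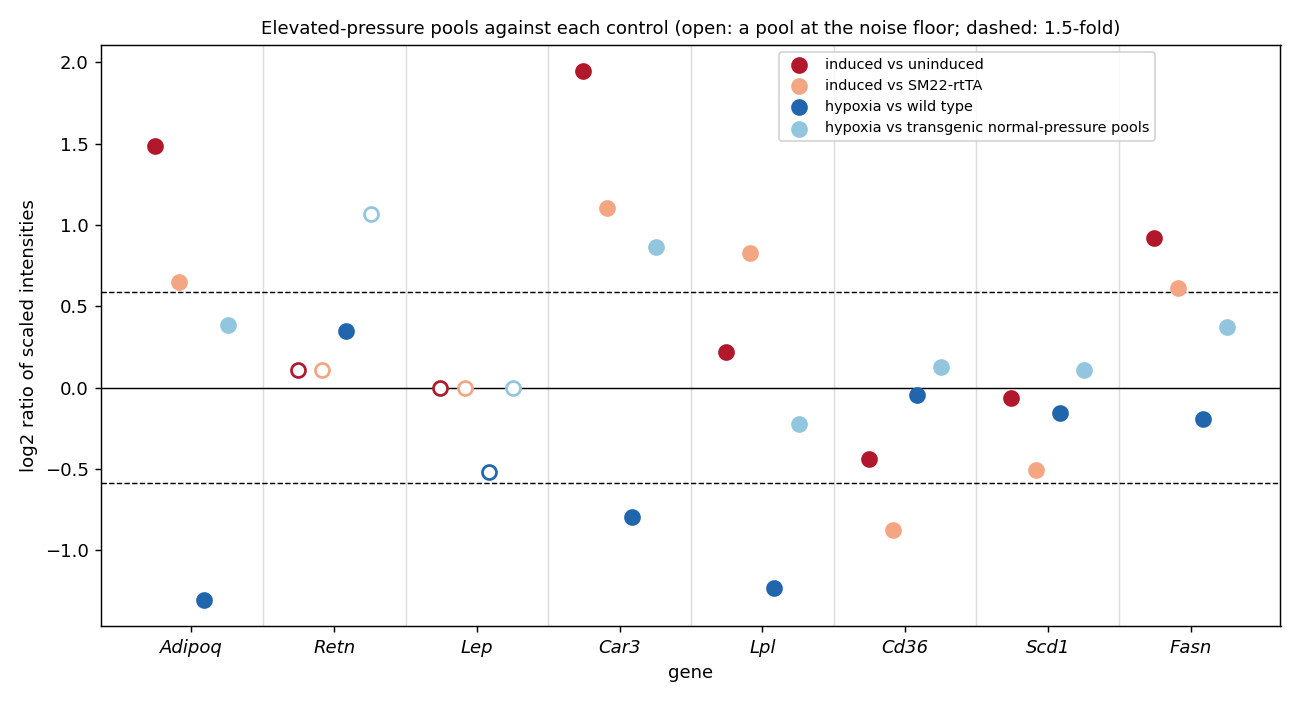
Log2 ratio of the induced pool to each of 2 controls (reds) and of the hypoxic pool to each of 2 controls (blues) for the 8 genes; open points have a pool at the noise floor and are bounds, and dashed lines mark 1.5-fold. Adipoq and Car3 lie above 0 for both controls of the induced pool, and for hypoxia below 0 against wild type and above 0 against the transgenic pools.

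Compared over the 5 pools by the root mean square (RMS) difference of log2 levels after each gene's mean was taken off, the closest pairs were Cd36 with Scd1 (0.15), Lep with Scd1 (0.21) and Adipoq with Car3 (0.23), and the farthest was Cd36 with Car3 (0.86). Lep was at the floor in all pools except wild type, so its profile is nearly flat. Outside the set, among 7009 genes above the floor in at least 3 pools, the profiles nearest to Adipoq were those of Mccc1 (0.22), a subunit of the leucine-degrading methylcrotonoyl-CoA carboxylase, Tmem45b (0.22), the respiratory complex III subunit Uqcrfs1 (0.26), the acid phosphatase Acp5 (0.26) and the electron transfer flavoprotein subunit Etfa (0.26), against a median of 0.76. Uqcrfs1, for example, was at 4118 in wild type, 2434 in the induced pool and 1140.4 to 1267 in the others. Nearest to Fasn were the phosphoglucomutase Pgm1 (0.10), Sypl2 (0.10), the insulin gene Ins2 (0.12), Ddit4l (0.12) and Pus7 (0.13), against a median of 0.41. Some of these matches rest on values raised to the floor. Sypl2 was at 194 in the uninduced pool and 210 in SM22-rtTA, and Ddit4l at 184 and 219. Near Adipoq, Tmem45b was at 129 and Acp5 at 275 in the uninduced pool.

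Other genes of fat cells and lipid storage were taken from 7 lists with 67 genes, 52 of them above the floor in at least 1 pool. With induction 13 (25%) were called higher and 2 (3.85%) lower, where 5.08% and 2.58% of all genes were. In hypoxia against wild type 1 (1.92%) was higher and 14 (26.9%) lower, with a background of 7.67% and 12%. Against the transgenic pools hypoxia had 7 (13.5%) higher and 1 (1.92%) lower, the former near the background of 12.1% and the latter below that of 4.35%. In wild type against those pools 19 (36.5%) were higher and 0 lower, with a background of 16.9% and 10.3%. In fat cell identity genes, Fabp4, the fatty acid binding protein of fat cells, was at 6266 in wild type, 3521 in the induced pool, 2168 in hypoxia, 1457 in SM22-rtTA and 1091 in the uninduced pool, the same order at both ends as Adipoq. Cebpb (2557 to 3732) and Cebpd (2426 to 3362), regulators that fat cells share with many cells, were not called in the induced or the hypoxic pool. The probe set of Pparg, the regulator of fat cell formation, was at the floor in all pools, as were those of Sncg and Aqp7. Of the 9 measured genes of this list 3 were higher with induction and 0 lower, and 2 were lower in hypoxia than in wild type. Against the transgenic pools 5 were higher in hypoxia and 0 lower, with the background of 12.1% and 4.35%.

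Among triglyceride synthesis genes, Gpd1, which makes the glycerol backbone, was at 4910.2 in wild type and 3982 in the induced pool against 555 to 667 in the others. Dgat2, which adds the last fatty acid, was at 3694 and 2329.9 in those pools against 702 to 1109, while Gpam, which adds the first, lay between 1724 and 2584. Of the 6 measured genes 2 were higher with induction, and 4 were lower in hypoxia than in wild type. Of all genes, 5.08% were higher and 2.58% lower with induction, and 12% were lower in hypoxia than in wild type. Against the transgenic pools 0 of the 6 were called higher and 0 lower in hypoxia, where 12.1% and 4.35% of all genes were. With induction, and in hypoxia against wild type, the other probe sets of Fabp4 and Gpd1 had the same sign or were at the floor in both pools. In droplet proteins 3 of 9 were higher with induction, and the most abundant of them were level between the induced and uninduced pools: Plin2, the droplet coat of most cells, at 2118 and 1958, Bscl2 at 1239.9 and 1069.9, and G0s2, a lipase inhibitor, at 1722 and 1724. Lipolysis genes had 0 of 5 higher and 1 lower with induction, the lysosomal lipase Lipa at 772 against 1199; the fat cell lipase Pnpla2 was at 2121 against 1910.1 and Mgll at 2201 against 2449.

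In fatty acid synthesis, the most abundant genes of the list were not called with induction. Acly, which supplies acetyl-CoA, was at 2268 in the induced and 1668 in the uninduced pool, and the elongase Elovl5 (3415 against 4095) and the desaturase Scd2 (4122 against 4807) were also less than 1.5-fold apart. The 3 of 11 genes called higher with induction were Me1, Mlxipl and Acss2, which were lower in hypoxia than in wild type, as was Fads2. Against the transgenic pools 0 of the 11 were called higher and 0 lower in hypoxia, where 12.1% and 4.35% of all genes were. The log2 ratios there were -0.18 for Me1, -0.20 for Acss2 and 0.28 for Fads2, and Mlxipl was at the floor on both sides. In wild type, where kidney and liver markers were highest, Me1 was at 4168 against 569 to 1101 elsewhere; the part of those organs in it was not tested. Of the uptake and transport genes Fabp5, the binding protein of skin and macrophages, was at 4319 in hypoxia and 3116 in the induced pool against 1271 to 1984 at normal pressure. Its other probe set was also higher in both pools against their matched controls, but for the induced pool against SM22-rtTA its log2 ratio was -0.13, where the first had 0.65. Squamous epithelium markers, keratins and cornified layer genes, moved with Fabp5: their summed level was 23814 in hypoxia and 14904 in the induced pool against 1344 to 1581 at normal pressure. In hypoxia 5 of 7 were higher than in wild type, against 7.67% of all genes, and with induction 6 of 7, against 5.08%. Compared with the transgenic pools, 6 of 7 were higher in hypoxia, against 12.1% of all genes. The part of squamous epithelium in the Fabp5 levels was not tested. Angptl4, which inhibits lipoprotein lipase, was at 1515 in the induced pool and 2741 in the uninduced pool, with 1327 to 1789 in the rest, and Acsl5 lay between 2142 and 3581. The adiponectin receptors Adipor1 (2609.6 to 3608) and Adipor2 (1666 to 1908) and the insulin receptor substrate Irs1 (637 to 1153) had 0 calls in the induced and hypoxic pools against their matched controls. Against SM22-rtTA, Irs1 was 1.75-fold higher in the induced pool.

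**Figure D3:**
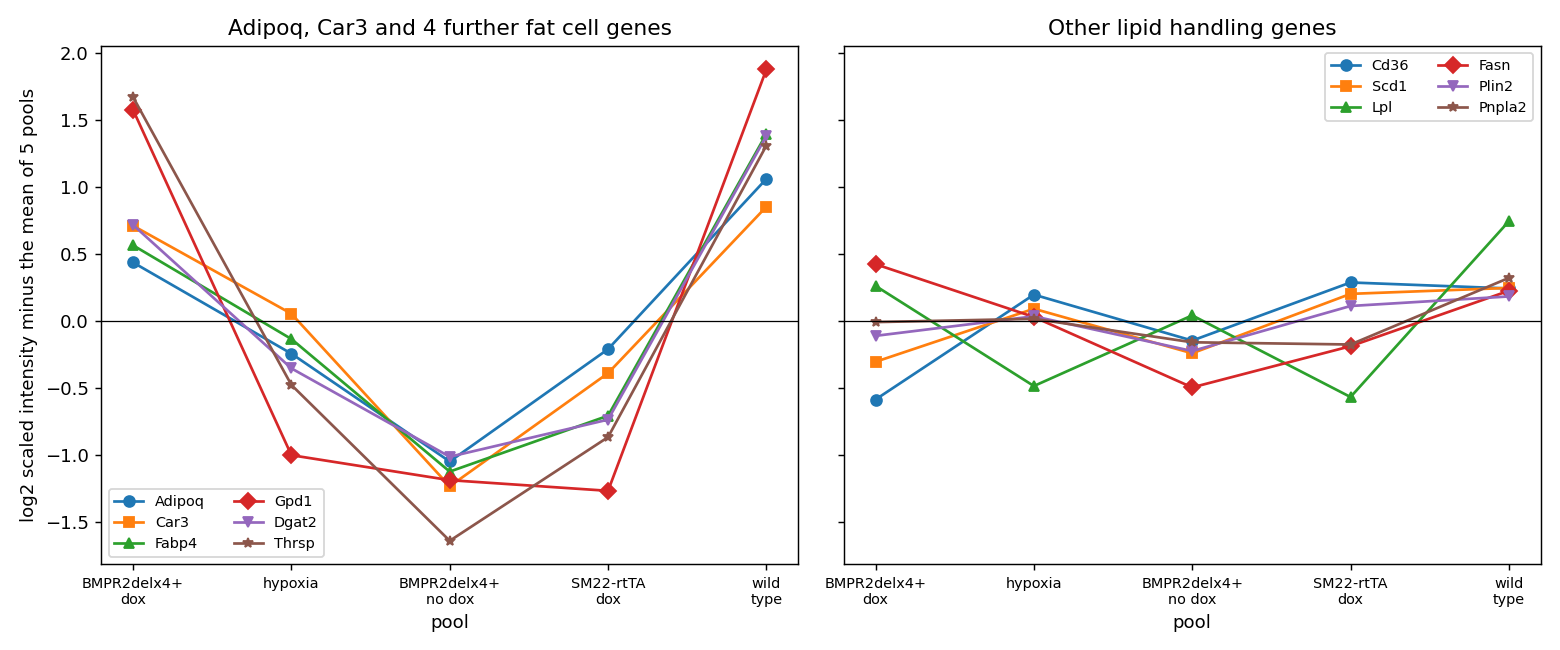
Log2 scaled intensity of single genes in each pool, minus that gene's mean over the 5 pools, with values under the floor raised to it; lines join the points of a gene and imply no order of pools. Adipoq, Car3, Fabp4, Gpd1, Dgat2 and Thrsp lie above their mean in the induced and wild-type pools, and Cd36 and Scd1 lie below theirs in both BMPR2delx4+ pools.

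The pattern of Adipoq and Car3, at least 1.5-fold higher in both the induced and the wild-type pool than in each of the other 3, was defined after the values were seen. It was met by 2 of the 8 members, Adipoq and Car3, which defined it, and by 1.02% of all 8596 genes. Of the 52 other lipid genes, 8 met it (Fabp4, Thrsp, Plin4, Cidea, Dgat2, Gpd1, Mlxipl and Fabp3). With values as deposited Adipoq fell just short of it, at a log2 ratio of 0.58 to SM22-rtTA. Brown fat markers moved with the pattern. Of 10 listed, 7 had a probe set and 5 were above the floor in a pool. The induced pool had a summed level of 8505 and wild type one of 5129, against 1186 to 1289 in the others. With induction 4 of 5 were higher, against 5.08% of all genes. Cidea is on this list and among the droplet proteins, so the 2 sets of counts overlap. Dio2 and Elovl3 were at the floor in all pools, and Ppargc1a was not called. Ucp1, which defines brown fat, had a level of 1600.4 after induction and 797 in wild type, and sat at the lower limit of the deposited table in the other 3. Cox8b was at 2936 and 1485 against 331 to 389. The induced pool was above wild type in the summed brown fat level, in Fasn and on the second Car3 probe set, and below wild type in Adipoq, Fabp4 and Lpl. Cardiac muscle markers were high in the induced pool as well, with 7 of 9 higher than in the uninduced pool and a summed level of 30226 against 10329 to 12016 in the other pools, but not in wild type. Cox8b, Cox7a1 and Fabp3 are also genes of heart and striated muscle. The part of brown fat and of muscle in the levels of the members was not tested.

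**Figure D4:**
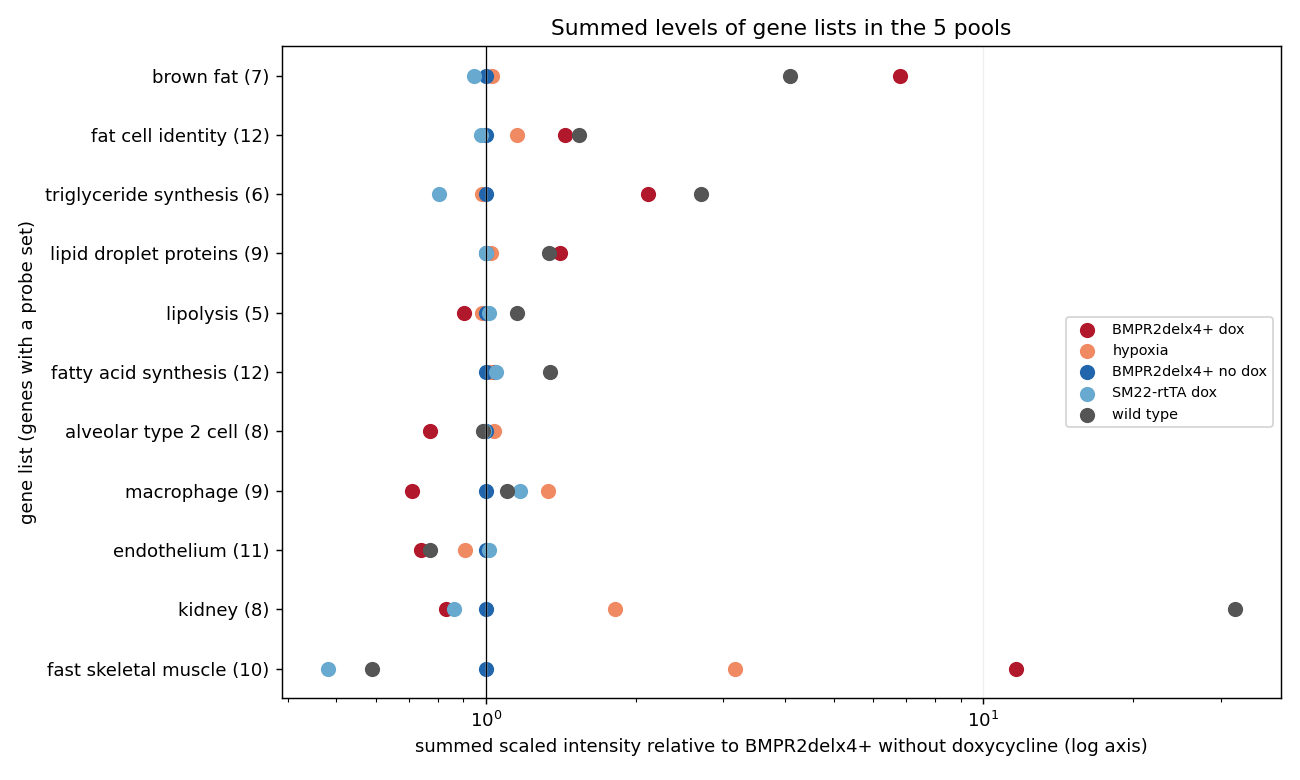
Summed scaled intensity of the genes of a list in each pool, relative to BMPR2delx4+ without doxycycline, on a log axis; the number of genes with a probe set follows the name of each list. Brown fat and triglyceride synthesis lists are high in the induced and wild-type pools, kidney markers in wild type, and fast skeletal muscle markers in the induced and, to a lesser degree, the hypoxic pool.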

How the data were processed

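Per the labels, whole lung RNA pooled per condition was measured on 1 array in each of 5 groups, taken from the sample titles. The authors deposited linear intensities for 22626 probe sets; how these were summarised, background-corrected and scaled is not given in the sources used here. No deposited intensity was under 50, and 9.85% to 12.5% of each array was at 50. Log2 values were shifted by -0.11 to 0.13 so that all arrays shared a median over 9046 probe sets above the median of every array, and raised to a floor at the 50th percentile (scaled intensity 276). Names came from the platform annotation, and RefSeq gene IDs served to update the symbols (20351 of 20380 with 1 gene; 691 with several and 1555 with none were not named). A gene was called at 1.5-fold with the higher side above the floor; no p-value was computed. Named genes were the members, the 3 genes of highest mean intensity in each list, and the 5 genes nearest to Adipoq and to Fasn; other genes were named after their values were seen. The members and lists were chosen with earlier results of these data known. The calling code was run on simulated arrays with known changes. These changes were larger than 1.5-fold, in genes above the floor on every array, with less noise than the spread between these pools. That run checks the code and cannot show how reliable a 1.5-fold call is here. Alternatives covered scaling, floor, a pseudocount of 50, fold, probe set and call rule. Python 3.11.15, numpy 2.4.6 and pandas 2.3.3 were used.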

Additional observations from a re-analysis of the deposited data

Results flagged for a closer look

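Adipoq and Car3 were called in opposite directions in the elevated-pressure pools, each against its matched control. The log2 ratio after induction minus that in hypoxia was 2.79 for Adipoq and 2.75 for Car3. Each side is 1 array against 1 array, so the difference was not tested. The comparisons share no array, but the hypoxic one rests on the wild-type pool; against the transgenic pools the hypoxic log2 ratios were 0.39 and 0.87.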

How the results depend on the processing

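No paired analysis was possible because each group has 1 array, and for the same reason no replicate could be left out. The median log2 ratio of the members kept its sign in all 6 comparisons under each alternative and moved by less than 0.34, the SD between the transgenic normal-pressure pools. That limit is wide, since some medians are smaller than it. For the induced pool against SM22-rtTA the median fell from 0.36 to 0.055 with the second probe set. For hypoxia against the transgenic pools it fell from 0.25 to 0.10 with values as deposited. For wild type against those pools it rose from 0.64 to 0.96 with a floor at the 30th percentile. Counts of called members were less stable. For induction against the uninduced pool, 1 member was higher when it also had to lie outside the other normal-pressure pools, and 1 (Lep) was lower with a floor at the 30th percentile and with the pseudocount. Against SM22-rtTA 2 were higher with values as deposited, 1 at 2-fold and 1 outside the range; 2 were lower with the pseudocount, the mean of probe sets and the second probe set, and 0 at 2-fold. For hypoxia against wild type 0 were lower outside the range; against the transgenic pools 1 was higher with a floor at the 70th percentile, the second probe set, 2-fold and the range, and 1 (Lpl) was lower with the mean of probe sets and the second probe set. For SM22-rtTA against the uninduced pool 1 was higher with the floor at the 70th percentile and 0 at 2-fold and outside the range, and 0 were lower with values as deposited, quantile normalization, the mean of probe sets, the second probe set and 2-fold. The second Lpl probe set reversed 2 called ratios, to -0.082 for the induced pool against SM22-rtTA and 0.22 for SM22-rtTA against the uninduced pool. Of 336 ratios of single members under alternatives, 299 kept their call and moved by less than the SD of 0.34. Many of these could not move, so the count overstates stability. Adipoq, Retn, Lep and Fasn have 1 probe set, and their probe set alternatives repeat the main value. Car3, Lpl, Cd36, Scd1 and Fasn were above each floor tried, and their floor alternatives repeat it too. The cause of these shifts was not tested. Signal limits Lep and Retn, which were near the floor.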

Other observations

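Of the 9 measured fat cell identity genes, 5 were called higher in hypoxia than in the transgenic pools, but 0 higher and 2 lower than in wild type, the matched control. Of all genes, 12.1% were called higher against the transgenic pools, and 7.67% higher and 12% lower against wild type. Among the 5, Lgals12, a galectin of fat cell droplets, was at 751 in hypoxia and 920.4 in wild type against 293 to 393 in the other pools, and the amine oxidase Aoc3 at 553 and 524 against 366 in the induced pool and the floor in the transgenic controls. Slc2a4, the insulin-responsive glucose transporter of fat and muscle, was at 784 in hypoxia and 1036 in the induced pool against 446 in the uninduced pool and 370.0 in SM22-rtTA, and at 749 in wild type. The other probe sets of Lgals12 and Slc2a4 were at the floor on both sides of the comparison of hypoxia with the transgenic pools. Ucp1 and Cidea were at 52.9 in hypoxia, the deposited lower limit after scaling, where Adipoq was at 792. Fast skeletal muscle markers (summed level 17045 in hypoxia against 2587 to 5385 at normal pressure) and squamous epithelium markers (23814 against 1344 to 1581) were also high in the hypoxic pool, and their part in these levels was not tested. The genes named here were picked after their values were seen.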
